A study of Mus musculus with 18 samples.

Results

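Smooth muscle contractile genes were followed in whole ovaries of young female mice. The set held 10 genes, taken by symbol from the 30172 genes of the deposited files, and all 10 were found: the actins Acta2 and Actg2, the myosin chains Myh11 and Myl9, the actin-binding proteins Tagln, Cnn1, Smtn and Lmod1, the intermediate filament protein Des, and the calcium store protein Casq2. The ovaries came from wild-type C57BL/6J females of the first generation (F1), whose dams ate either a diet with 3% methionine to raise homocysteine (F1-HHcy, hyperhomocysteinemia) or normal chow (F1-Control). By the labels the diet ran from 4 weeks before mating through gestation and lactation, and the study itself gives a longer feeding period. All sires ate the normal diet. Whole ovaries were taken at postnatal day 3, 7 or 21 (Pd3, Pd7, Pd21), which gives 6 groups of 3 libraries and 18 libraries in all. How many pups gave the RNA of a library was not stated, nor how many dams the libraries of a group came from. The diet was given to the dams, and libraries of a group may come from littermates. The p-values therefore measure the spread between libraries, which may be partly technical, and not the spread between dams.

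Smooth muscle cells contract when calcium, through calmodulin and myosin light chain kinase, leads to phosphorylation of the regulatory myosin light chain, after which smooth muscle myosin pulls on actin filaments. Their contractile genes are turned on together by serum response factor (SRF) and its partner myocardin, through a short promoter element named the CArG box. In the ovary these genes are known from the walls of blood vessels and from the theca externa, the contractile coat that forms around growing follicles. Acta2 and Tagln are also made by pericytes and by activated fibroblasts, Myl9 by many cell types, and Casq2 is best known from heart muscle.

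Depth ranged from 33630641 to 39399281 fragments per library. Values are FPKM, fragment counts scaled to gene length and to the depth of the library, so that levels can be compared between genes as well as between libraries. Between 11 and 12 of 12 oocyte markers and between 8 and 10 of 10 granulosa markers reached 1 FPKM in every library. Pd21 was batch 2 by its labels and both younger ages batch 1, so each diet comparison lay within a batch, while age and batch cannot be told apart for Pd21. The F1-HHcy replicate 3 of Pd3 stood apart from the other Pd3 libraries: 14 immediate early genes such as Fos and Jun summed to 3730 FPKM in it and to 297 to 481 FPKM in the other Pd3 libraries. In bulk tissue, fewer cells of a type and less RNA per cell cannot be told apart.

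In GENCODE vM21 (GRCm38), Acta2 is at chr19:34241090-34255590, Actg2 at chr6:83512905-83536265, Myh11 at chr16:14194535-14291372 and Myl9 at chr2:156775420-156781658. Tagln lies at chr9:45929619-45936058, Cnn1 at chr9:22099216-22109630, Smtn at chr11:3517523-3540612 and Lmod1 at chr1:135324807-135368065. Des lies at chr1:75360329-75368579 and Casq2 at chr3:102086415-102146514. Reads of the close relatives Acta2 and Actg2 could be told apart in the main: of all stretches of 50 bases in their annotated transcripts, 0.326% of Acta2 and 0 of Actg2 also occurred in a transcript of another gene. For Myh11 the share was 0.340%, all of it with Myh9, and for the other 7 genes it was 0. Casq2 is overlapped on its own strand by 2 other annotated genes, Gm43244 and 4632404M16Rik, but their annotated transcripts held none of its stretches of 50 bases. Reads from outside annotated transcripts were not checked.

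RefSeq promoters (GRCm38.p6, 250 bases before to 50 after the gene start) were given for 7 of the 10 genes, and those of Actg2, Myh11 and Tagln were not analysed here. A CArG box without mismatch, which reads as a CArG box on both strands, stood in 1 of these 7, Myl9, and in 1.81% of the 27025 genes with a promoter. With at most 1 mismatch it stood in 4 of the 7, namely Acta2, Lmod1, Myl9 and Casq2, and in 23.8% of all genes, so the looser form is common. The elements below are shown because Acta2 was one of the genes that differed most between libraries of a group, Myl9 held the only element without mismatch, and Casq2 went its own way at Pd3. Capitals mark the element, each sequence reads 5′ to 3′ on the strand of the gene, and positions count from the RefSeq gene start.
Acta2, chr19:34255438-34255467, minus strand, element at -84, 1 mismatch: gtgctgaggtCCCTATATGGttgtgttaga
Acta2, chr19:34255388-34255417, minus strand, element at -34, 1 mismatch: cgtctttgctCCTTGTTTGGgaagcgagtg
Myl9, chr2:156775293-156775322, plus strand, element at -161, no mismatch: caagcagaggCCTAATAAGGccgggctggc
Myl9, chr2:156775355-156775384, plus strand, element at -99, 1 mismatch: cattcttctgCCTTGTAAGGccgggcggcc
Casq2, chr3:102086363-102086392, plus strand, element at -42, 1 mismatch: caactgcatcCTAAAAATGGagttcttaat
GENCODE starts Acta2 further upstream than RefSeq, so that both Acta2 elements lie inside its GENCODE gene. A match of letters is a description of the sequence and not a measured binding site.

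Levels per length spanned more than 2 orders of magnitude within the set. In F1-Control ovaries at Pd3, Myl9 was the most abundant at 232 ± 14.3 FPKM (SD, n = 3), followed by Tagln at 58.3 ± 9.11, Acta2 at 43.1 ± 12.8 and Actg2 at 5.14 ± 1.70. Myh11 stood at 4.68 ± 1.16, Smtn at 4.78 ± 1.82, Cnn1 at 3.22 ± 0.920 and Des at 2.57 ± 0.235. Lmod1, a leiomodin that nucleates actin filaments, stood at 0.369 ± 0.216 and Casq2, the calcium-binding protein of the sarcoplasmic reticulum, at 0.0997 ± 0.0779. Casq2 was the lowest of the set in these ovaries, on 9, 2 and 16 fragments in the 3 control libraries.

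**Figure D1:**
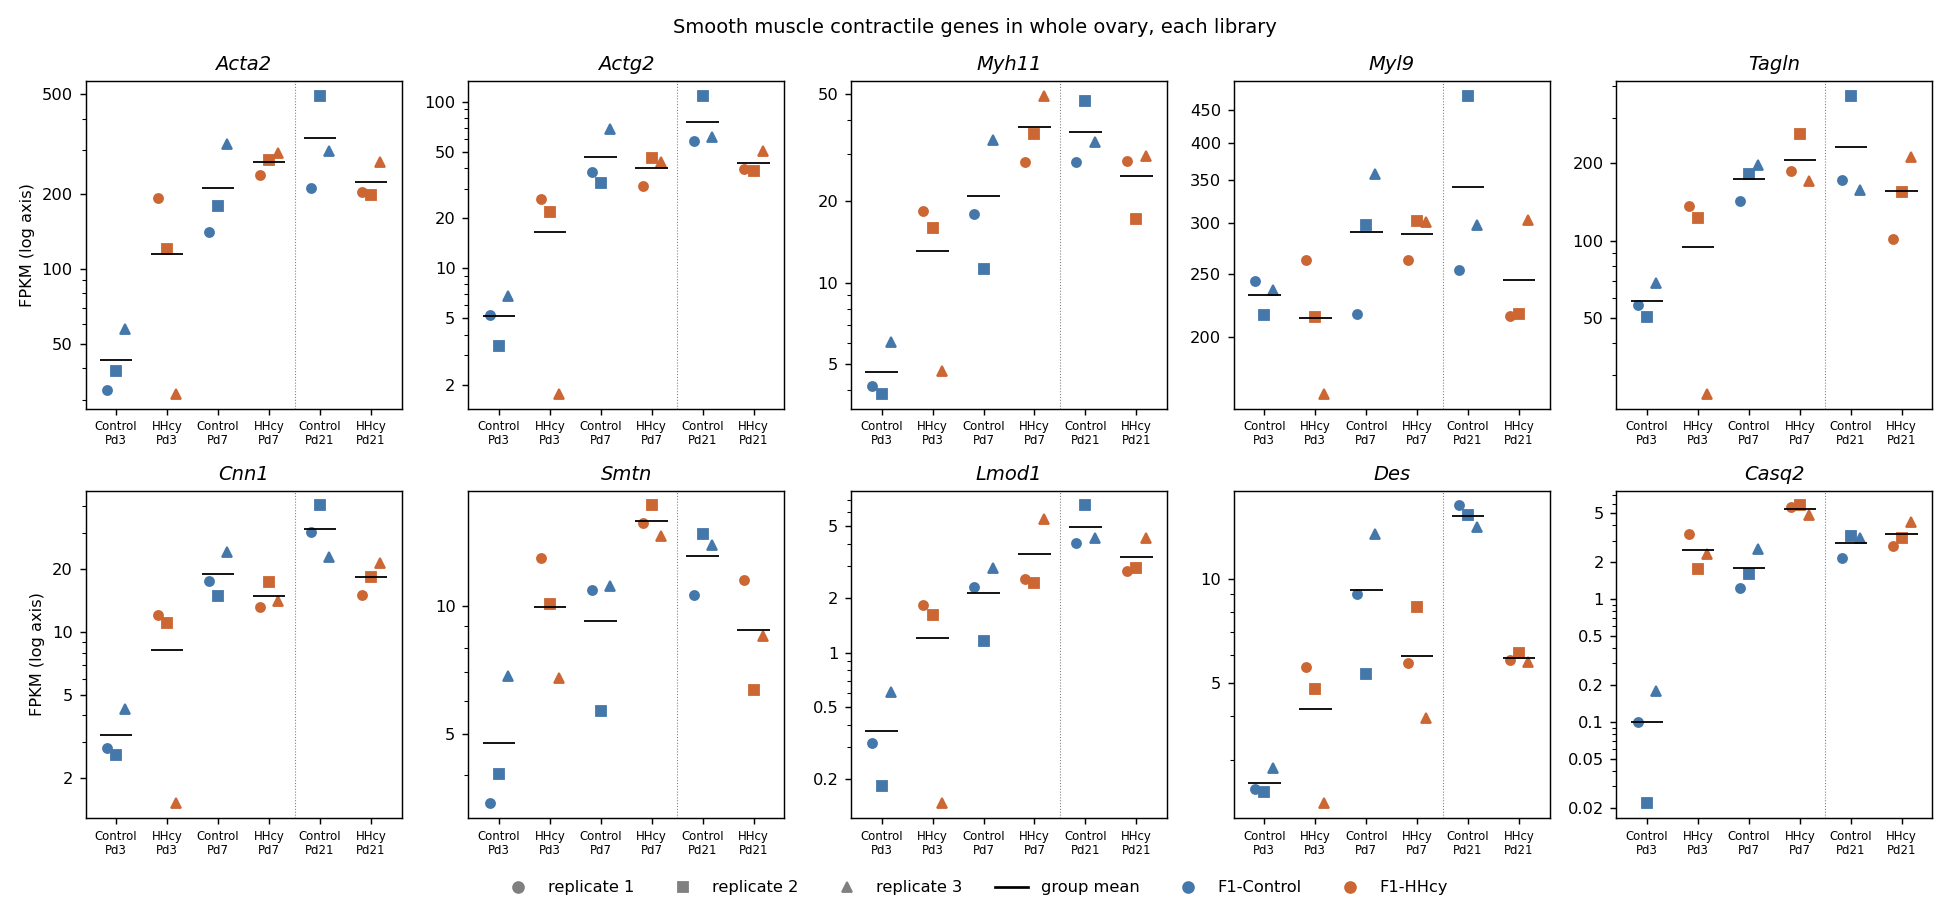
FPKM on a log axis (vertical) of the 10 genes in the 6 groups (horizontal), 1 point per library with its replicate number as the symbol and the group mean as a line, the dotted line separating batch 1 from batch 2. Acta2 rose from a mean of 43.1 FPKM in Pd3 controls to 211 in Pd7 controls. F1-HHcy replicate 3 of Pd3 (triangle) lay below every Pd3 control for 7 of the 10 genes, a count without a share of all genes beside it.

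The 6 groups could be ranked by mean FPKM for each gene, but most neighbours in that order overlapped. F1-Control Pd3 was the lowest group for 9 of the 10 genes, and F1-Control Pd21 the highest for 7. For Acta2, Myh11, Myl9, Tagln, Smtn and Lmod1 each group overlapped the next in rank. Actg2, the enteric smooth muscle actin, and Cnn1, basic calponin, each had a single gap in the order, between F1-HHcy Pd3 below and F1-HHcy Pd7 above. Des, the muscle desmin, had 2 gaps, 1 between F1-HHcy Pd3 and F1-HHcy Pd21 and 1 that left F1-Control Pd21 alone at the top, at 15.2 FPKM. Casq2 also had 2 gaps, with F1-Control Pd3 alone at the bottom and F1-HHcy Pd7 alone at the top at 5.45 FPKM.

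At Pd3, the question was whether the diet of the dam went with a different level of these genes in the newborn ovary. The F1-HHcy libraries disagreed among themselves. In replicate 1 all 10 genes were above every control library, and in replicate 2 this held for 9 genes. In replicate 3 it held for 1 gene, Casq2, while 7 genes were below every control. No share of all genes outside the control range is given here, so these counts only describe how the libraries disagreed. Acta2, the smooth muscle alpha actin, measured 32.9, 38.9 and 57.5 FPKM in the controls and 193, 121 and 31.7 FPKM in F1-HHcy replicates 1, 2 and 3. Actg2 measured 5.23, 3.39 and 6.80 FPKM against 26.2, 21.9 and 1.76. Relative to the control mean, Actg2 was thus at 5.10, 4.27 and 0.343 times in the 3 F1-HHcy libraries, which was the widest ratio between libraries in the set.

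Myh11, the smooth muscle myosin heavy chain that sets these cells apart from pericytes and fibroblasts, measured 4.15, 3.88 and 6.01 FPKM in controls and 18.5, 16.0 and 4.72 FPKM in F1-HHcy. Replicates 1 and 2 lay above and replicate 3 inside the control range. Myl9, the regulatory light chain, measured 244, 216 and 236 FPKM against 263, 215 and 163. It moved least, with F1-HHcy libraries between 0.702 and 1.13 times the control mean.

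Among the actin-binding proteins, Tagln (transgelin) measured 56.3, 50.3 and 68.2 FPKM in controls and 136, 122 and 25.4 FPKM in F1-HHcy. Cnn1, which restrains the myosin motor, measured 2.79, 2.60 and 4.28 FPKM against 12.1, 11.1 and 1.52. Both were higher than every control in replicates 1 and 2 and lower than every control in replicate 3. Smtn (smoothelin), a marker of contractile smooth muscle, measured 3.44, 4.04 and 6.85 FPKM against 13.0, 10.1 and 6.77. Lmod1 measured 0.317, 0.184 and 0.607 FPKM against 1.83, 1.62 and 0.147, and it was not tested at Pd3 because fewer than 3 libraries reached 1 FPKM. Des measured 2.46, 2.41 and 2.84 FPKM against 5.54, 4.80 and 2.24, with the same split of the F1-HHcy libraries.

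Casq2 was the exception. It measured 0.0997, 0.0218 and 0.178 FPKM in the controls and 3.40, 1.75 and 2.33 FPKM in F1-HHcy, on 316, 161 and 206 fragments. Replicate 3, which was low for the actins, stood at 23.4 times the control mean of Casq2, between replicates 2 and 1 at 17.6 and 34.1 times. Within a library the ratio of Casq2 to Myh11 was 0.00560 to 0.0296 in Pd3 controls and 0.11 to 0.493 in Pd3 F1-HHcy libraries, with the top value in replicate 3.

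**Figure D2:**
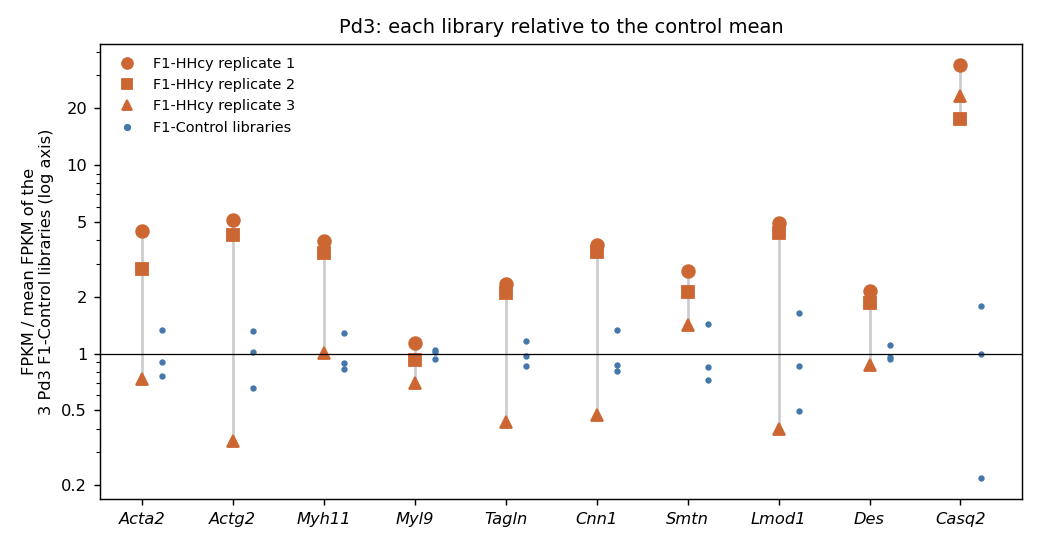
FPKM of each Pd3 library divided by the mean of the 3 F1-Control libraries (vertical, log axis) for the 10 genes (horizontal), with F1-HHcy libraries as large symbols by replicate number and F1-Control libraries as small points. F1-HHcy replicate 3 sits below 1 for Acta2 (0.734), Actg2 (0.343), Tagln (0.436) and Cnn1 (0.472) and far above it for Casq2 (23.4).

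The tests were run day by day with limma on log2(FPKM + 1), for genes that reached 1 FPKM in 3 or more of the 6 libraries. Being called means here that the unadjusted p was below 0.05 and the log2 fold change larger than 0.58 either way. Adding 1 understates the change of genes near 1 FPKM. At Pd3, 3 of the 9 genes tested were called, all 3 higher, where 9.74% of all 13277 genes tested were called in either direction. The 3 were Casq2 (log2 fold change 1.64, standard error SE 0.199), Myh11 (1.14, SE 0.436) and Smtn (0.930, SE 0.276). With limma and Benjamini-Hochberg adjustment over all genes, 1 of the 9 passed, Casq2 at an adjusted p of 0.0171, as did 3.07% of all genes tested, and Myh11 and Smtn had adjusted p of 0.184 and 0.109. Casq2 entered the test only through its F1-HHcy libraries, since it was below 1 FPKM in every control, and it is a gene the study chose to show from these samples, so its call is not independent evidence. The median log2 fold change of the 9 genes was 0.930, against -0.0307 over all genes tested. Acta2 (1.09, SE 0.592), Actg2 (1.00, SE 0.799), Cnn1 (0.825, SE 0.588), Des (0.478, SE 0.257) and Tagln (0.377, SE 0.573) were not called, and Myl9 stood at -0.145 (SE 0.176).

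These calls depended on single libraries, the third F1-HHcy library above all. Without it, 14.9% of all 13049 genes tested were called in either direction, and 7 of the 8 contractile genes still tested were called higher: Acta2 at 1.84 (adjusted p = 0.00343, limma), Actg2 at 2.06 (adjusted p = 0.00142), Myh11 at 1.70, Cnn1 at 1.60, Smtn at 1.16, Tagln at 1.14 and Des at 0.786. The adjusted p of Acta2 ranged from 0.00343 to 0.662 over its 16 alternatives and that of Actg2 from 0.00141 to 0.849. Without F1-HHcy replicate 1 or replicate 2, 1 gene was called, Smtn. Casq2 no longer passed the filter there, and Myh11 was tested but lost its call, as it also did without control replicate 1 or 2. With a looser filter, 1 FPKM in at least 2 libraries, chosen after seeing the data, Casq2 and Lmod1 could be tested without replicate 3, and 9 of 10 genes were called higher, Lmod1 at 1.00 (SE 0.183) and Casq2 at 1.66 (SE 0.221), where 16.4% of all genes were called in either direction. Both Lmod1 and Casq2 were below 1 FPKM in every control and passed this filter only through F1-HHcy replicates 1 and 2. Under that filter Casq2 stayed at 1.46 to 1.80 whichever F1-HHcy library was left out. Its log2 fold change depended on the scale, at 3.73 with 0.1 in place of 1 added to the FPKM and 4.91 with limma-voom on recovered fragments. The adjusted p of Casq2 ranged from 0.00035 to 0.129 over 13 alternatives and was above 0.05 without any 1 of the 3 control libraries, with no filter and with the replicate number as a block.

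Among markers of other cells at Pd3, the sum of the theca markers split by library as the actins did, but not every gene in it did. The sums of endothelium, fibroblast and red cell markers differed from the controls in all 3 F1-HHcy libraries. The 10 theca markers summed to 152 to 211 FPKM in the controls and to 779, 424 and 137 FPKM in F1-HHcy replicates 1, 2 and 3, and 2 of the 6 tested were called higher. The 12 endothelium markers summed to 76.8 to 102 FPKM in controls and 121 to 180 FPKM in F1-HHcy, with 6 of 10 called higher. The 10 fibroblast markers summed to 818 to 1118 FPKM in controls and 1434 to 1784 FPKM in F1-HHcy, again with 6 of 10 called higher. The 10 erythroid genes summed to 3955 to 11341 FPKM in controls and 786 to 1108 FPKM in F1-HHcy, with 10 of 10 called lower. Epb42 and Tspo2 of this list were tested only through the controls, where they were high. In order of the F1-HHcy replicates the contractile genes summed to 673, 525 and 240 FPKM, against 322 to 390 FPKM in controls. None of the 12 immediate early genes tested was called, and the part that the cell makeup, the erythroid RNA or the immediate early response had in the contractile genes was not tested.

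**Figure D3:**
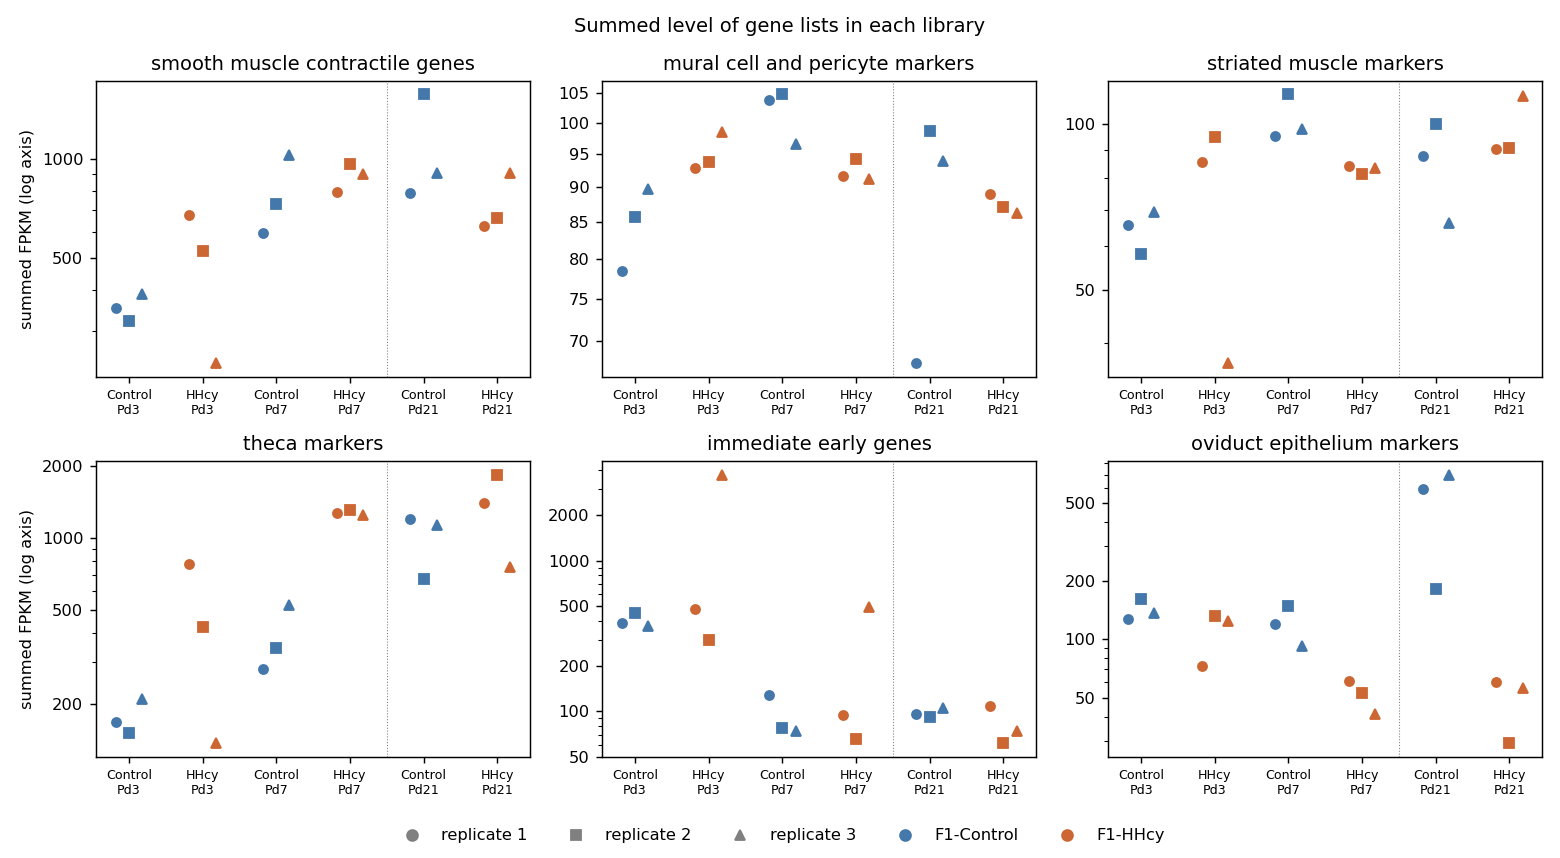
Summed FPKM (vertical, log axis) of 6 gene lists in each library (points, replicate number as symbol) of the 6 groups (horizontal). F1-HHcy replicate 3 of Pd3 is the lowest Pd3 library for contractile genes (240 FPKM), striated muscle markers (36.8 FPKM) and theca markers (137 FPKM). It is the highest for immediate early genes (3730 FPKM). For mural cell and pericyte markers it lies within 92.9 to 98.6 FPKM with the other F1-HHcy libraries of Pd3. Without Cox4i2 these mural sums are 82.7, 78.0 and 68.2 FPKM in F1-HHcy replicates 1, 2 and 3.

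At Pd7, when control ovaries already held 2.98 to 18.03 times the Pd3 level of every contractile gene but Myl9 and Smtn, the diets differed for 3 of the 10 genes. Casq2 measured 1.22, 1.59 and 2.58 FPKM in the controls and 5.67, 5.80 and 4.88 FPKM in F1-HHcy. Myh11 measured 17.9, 11.2 and 33.7 FPKM against 28.0, 35.4 and 49.0. Smtn measured 10.9, 5.66 and 11.2 FPKM against 15.8, 17.3 and 14.7. For Casq2 and Smtn every F1-HHcy library lay above every control, as for 19.5% of all genes tested, while Myh11 overlapped through control replicate 3.

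The calls at Pd7 were Casq2 (log2 fold change 1.23, SE 0.193), Myh11 (0.905, SE 0.337) and Smtn (0.772, SE 0.225), all 3 higher, where 9.06% of 13299 genes were called higher and 7.35% lower. Casq2 also passed the limma test with Benjamini-Hochberg adjustment (adjusted p = 0.00646), as did 11.9% of all genes, and Smtn (0.0530) and Myh11 (0.103) did not. The criterion called Casq2 under each of 12 alternatives, with adjusted p from 0.00118 to 0.0676. Leaving out control replicate 3, the control with the most Acta2 and Myh11 RNA, raised the count to 5 of 10 by adding Acta2 (0.752) and Lmod1 (0.688), and raised the share of all genes called from 16.4% to 21.3%. Smtn lost its call without control replicate 2, and Myh11 without control replicate 1 or 2 or F1-HHcy replicate 3.

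The other 7 genes were not called at Pd7, and their groups overlapped. Acta2 measured 140, 178 and 315 FPKM in the controls and 239, 273 and 292 FPKM in F1-HHcy, a log2 difference of 0.421 (95% confidence interval -0.181 to 1.02). Actg2 measured 37.9, 32.7 and 68.7 FPKM against 31.1, 46.2 and 43.4, a difference of -0.146 (-0.735 to 0.442). Control replicate 3 was the highest of the 6 libraries for both actins. Myl9 measured 217, 298 and 359 FPKM against 263, 303 and 301, and Tagln 143, 182 and 197 FPKM against 186, 259 and 171. Cnn1 measured 17.6, 14.8 and 24.3 FPKM against 13.2, 17.4 and 14.1, a difference of -0.308 (-0.735 to 0.119), so calponin and Actg2 did not follow Myh11 and Smtn upward. Lmod1 measured 2.30, 1.16 and 2.92 FPKM against 2.56, 2.44 and 5.51. Des measured 9.03, 5.32 and 13.5 FPKM against 5.72, 8.28 and 3.94, a difference of -0.524 (-1.21 to 0.162).

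Several other lists differed between the diets at Pd7. Oocyte genes were called lower in 8 of 12 and higher in 2, surface epithelium genes lower in 6 of 10, erythroid genes lower in 5 of 5 and granulosa genes higher in 5 of 10. Theca markers summed to 282 to 520 FPKM in controls and 1250 to 1304 FPKM in F1-HHcy, with 8 of 10 called higher and Cyp17a1, the enzyme of androgen synthesis, at the smallest p (log2 fold change 5.34, SE 0.632). Insl3 of this list was tested only through the F1-HHcy libraries, where it was high. Endothelium markers summed to 153 to 166 FPKM against 176 to 208 FPKM, and mural cell and pericyte markers to 96.7 to 105 FPKM against 91.2 to 94.2 FPKM. Without Cox4i2, left out after its values were seen, the other 14 mural markers summed to 73.2 to 86.09 FPKM in controls and 86.45 to 89.5 FPKM in F1-HHcy. F1-HHcy replicate 3 of Pd7 again had more immediate early RNA, 492 FPKM against 65.3 to 129 FPKM in the other 5 libraries. The share of these in the Casq2, Myh11 and Smtn differences was not tested.

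At Pd21 the mean was lower in F1-HHcy for 9 of the 10 genes, with Casq2 as the exception, and 3 genes were called lower. Des, which forms the intermediate filaments that link contractile units, measured 16.3, 15.2 and 14.1 FPKM in controls and 5.82, 6.09 and 5.75 FPKM in F1-HHcy, narrow groups that were far apart. Actg2 measured 58.4, 108 and 61.2 FPKM against 39.2, 38.4 and 50.5. Cnn1 measured 30.2, 40.4 and 22.8 FPKM against 15.1, 18.4 and 21.5. For these 3 genes every F1-HHcy library lay below every control, as for 8.61% of all genes tested. The 3 were also the genes called lower: Des (log2 fold change -1.23, SE 0.136), Actg2 (-0.769, SE 0.245) and Cnn1 (-0.713, SE 0.222), where 5.06% of 13350 genes were called lower and 0.0824% higher. Des had an adjusted p of 0.00406 (limma, Benjamini-Hochberg), and 2.23% of all genes passed that test, while Actg2 and Cnn1 had adjusted p of 0.313 and 0.292.

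The remaining genes except Casq2 were lower in F1-HHcy on average at Pd21, and none of the remaining genes was called. Acta2 measured 212, 493 and 297 FPKM in controls and 203, 197 and 268 FPKM in F1-HHcy. Tagln measured 173, 365 and 157 FPKM against 102, 155 and 211. Myl9 measured 254, 473 and 299 FPKM against 215, 217 and 304. Control replicate 2 was the highest of the 6 libraries for all 3, and its 10 genes summed to 1567 FPKM, against 788 and 905 FPKM in the other controls. Myh11 measured 27.9, 46.8 and 33.2 FPKM against 28.2, 17.1 and 29.4, and Smtn 10.7, 14.8 and 13.9 FPKM against 11.5, 6.37 and 8.51. Lmod1 measured 4.06, 6.51 and 4.33 FPKM against 2.83, 2.92 and 4.33. Log2 fold changes of these 6 genes lay between -0.549 for Smtn and -0.446 for Myl9. Casq2 measured 2.15, 3.25 and 3.17 FPKM against 2.72, 3.13 and 4.25, a difference of 0.176 (95% confidence interval -0.290 to 0.642). The median over the 10 genes was -0.521, against -0.0112 over all genes tested.

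Des stayed called under each of the 12 alternatives at Pd21, with log2 fold changes of -1.37 to -1.18 and adjusted p of 0.00203 to 0.124. Without control replicate 2 it was the only gene called, with 5.24% of all genes called, and without control replicate 1 the calls numbered 6, with Acta2, Myh11 and Smtn added and 3.43% of all genes called. Markers of the oviduct epithelium, tissue that adjoins the ovary, were 11 of 12 lower by the criterion and summed to 591, 181 and 700 FPKM in control replicates 1, 2 and 3 against 29.2 to 60.4 FPKM in F1-HHcy. Foxj1, Pax8 and Dnah5 of this list were tested only through the controls, where they were high. The oviduct wall has smooth muscle of its own. Among the controls, replicate 2 had the fewest oviduct markers and the highest sum of contractile genes, a sum made up mainly of Acta2, Myl9 and Tagln. Actg2 and Cnn1 were highest in the same control, and Des in control replicate 1. Surface epithelium markers were called lower in 8 of 10 and fibroblast markers in 3 of 10 at Pd21. How far oviduct tissue contributed to the lower Des, Actg2 and Cnn1 was not tested.

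**Figure D4:**
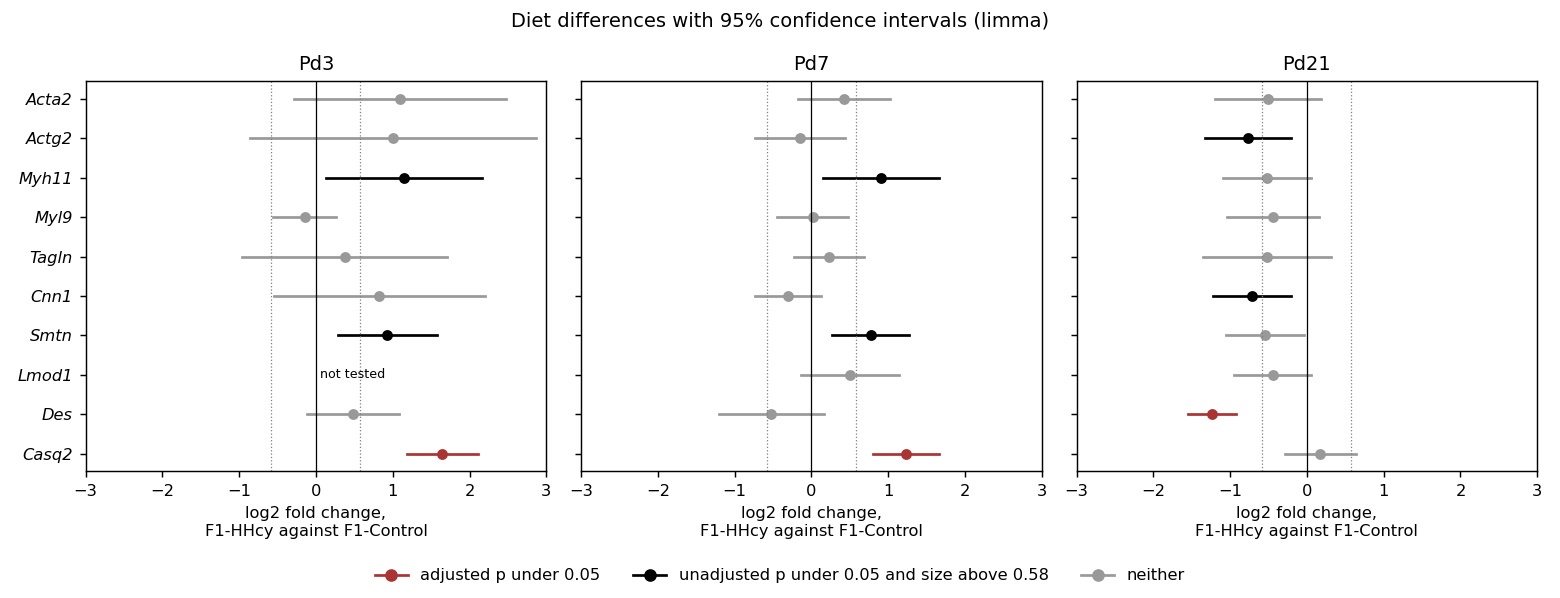
Log2 fold change of F1-HHcy against F1-Control with its 95% confidence interval (horizontal) for each gene (vertical) at Pd3, Pd7 and Pd21, from limma on log2(FPKM + 1), with dotted lines at 0.58 in size. Casq2 lies at 1.64, 1.23 and 0.176 from Pd3 to Pd21, and Des at 0.478, -0.524 and -1.23.

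The age comparison within batch 1 asked how much of the set is gained between Pd3 and Pd7. In F1-Control ovaries 9 of the 10 genes were called higher at Pd7, where 7.00% of 13336 genes were called higher and 7.77% lower, and 8 of them passed the limma test with Benjamini-Hochberg adjustment, which 14.5% of all genes did. Mean FPKM rose 9.03 times for Actg2 (log2 fold change 2.91, SE 0.288), 5.87 times for Cnn1 (2.23, SE 0.213), 4.90 times for Acta2 (2.22, SE 0.298), 4.48 times for Myh11 (1.84, SE 0.330) and 2.98 times for Tagln (1.56, SE 0.169). Lmod1 rose 5.76 times, Des 3.60 times and Casq2 18.03 times, the last from 27 fragments in all. Both Lmod1 and Casq2 were below 1 FPKM in every Pd3 control and were tested only through Pd7, where they are high. Of the other 8 genes, 7 were called and 6 passed the adjusted test. Smtn, at 1.94 times (0.820, SE 0.280), was called but had an adjusted p of 0.0818, and Myl9, at 1.25 times, was not called. Other cells changed over the same days in the controls: endothelium genes were called higher in 8 of 10, fibroblast genes in 7 of 10 and granulosa genes in 6 of 10, while erythroid genes were called lower in 10 of 10 and immediate early genes in 12 of 12. Fshr, a granulosa gene, was tested only through Pd7, and Fosb, an immediate early gene, only through Pd3. The part of these lists in the contractile genes was not tested.

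In F1-HHcy ovaries 6 of the 10 genes were called higher from Pd3 to Pd7, where 5.73% of 13257 genes were. These were Acta2 (1.55, SE 0.581), Casq2 (0.909, SE 0.187), Lmod1 (1.08, SE 0.398), Myh11 (1.60, SE 0.456), Smtn (0.662, SE 0.212) and Tagln (1.41, SE 0.591). No gene of any kind passed Benjamini-Hochberg adjustment in this comparison with limma, where the 3 Pd3 libraries were far apart, although 1471 genes were called by the unadjusted p and size (11.1%). Of the contractile genes, 8 of 10 had every Pd7 library above every Pd3 library, as had 14.6% of all genes tested, against 8 of 10 and 15.6% in the controls. Des was among the 8 in controls but not in F1-HHcy, where it went from 5.54, 4.80 and 2.24 FPKM to 5.72, 8.28 and 3.94 FPKM. Smtn was among the 8 in F1-HHcy but not in controls. The count called in F1-HHcy fell to 3 without Pd7 replicate 2 or replicate 3, with 8.76% and 10.3% of all genes called.

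**Figure D5:**
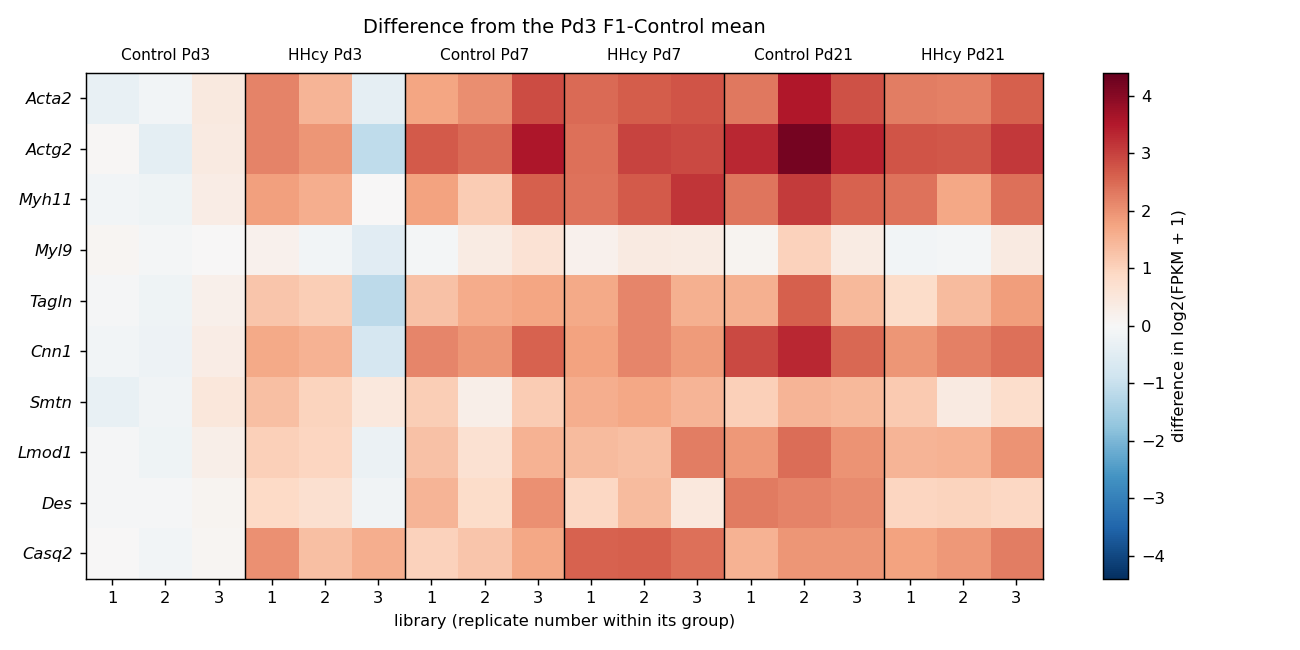
Difference in log2(FPKM + 1) of each of the 18 libraries (columns, by group and replicate number) from the mean of the 3 Pd3 F1-Control libraries for the 10 genes (rows), red for higher and blue for lower. Replicates 1 and 2 of F1-HHcy Pd3 are red in most rows, replicate 3 is blue for Actg2, Tagln and Cnn1 and red for Casq2, and Myl9 is pale throughout.

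Whether the diet difference itself changed with age was tested in 1 model of all 18 libraries on 14607 genes, as the difference of 2 diet effects. Between Pd7 and Pd3, 0 of 10 genes passed the adjusted p, as 0.411% of all genes did, and 1 was called by the unadjusted p and size, Des (-1.002, SE 0.397), where 5.28% of all genes were called lower. Without F1-HHcy replicate 3 of Pd3, Actg2 and Cnn1 passed, as did 1.82% of all genes. Between Pd21 and Pd3, 3 genes passed: Casq2 (-1.47, SE 0.287, limma adjusted p = 0.00559), Des (-1.71, SE 0.397, adjusted p = 0.0185) and Smtn (-1.48, SE 0.385, adjusted p = 0.0358), where 4.59% of all genes did. All 10 genes had a negative sign there, from -1.77 for Actg2 to -0.301 for Myl9, so that the Pd21 diet difference was the lower one throughout. The count rose to 9 of 10 without F1-HHcy replicate 3 of Pd3, where 8.65% of all genes passed. It fell to 1, Casq2, where 1.47% to 3.34% of all genes passed, without F1-HHcy replicate 1 or 2 or control replicate 1 of Pd3, or control replicate 1 or 3 of Pd21. Between Pd21 and Pd7, Casq2 alone passed (-1.06, SE 0.287, adjusted p = 0.049995), where 3.89% of all genes did, and this call was lost under most alternatives. The comparisons share the Pd21 or the Pd3 libraries, and batch and age cannot be told apart in those with Pd21.

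Other genes of the contractile machinery were read from lists of the apparatus, the signalling that triggers contraction and the regulators of SRF. Of 21 further apparatus genes tested at Pd3, 4 were called higher and 0 lower, beside the 9.74% of all genes called in either direction. Of the 21, 19 had a positive sign, and their median log2 fold change was 0.411, against -0.0307 over all genes tested. The smallest p was that of Synm, the intermediate filament partner of desmin, with 1.30, 1.18 and 1.69 FPKM in controls and 8.57, 5.49 and 5.19 FPKM in F1-HHcy (log2 fold change 1.61, SE 0.197, adjusted p = 0.0175 with limma). Like Casq2, Synm was high in all 3 F1-HHcy libraries, replicate 3 included. At Pd7, 3 of 22 were called higher and 0 lower, beside 9.06% of all genes called higher, with Synm again first (1.25, SE 0.224). At Pd21, 2 of 22 were called lower and 0 higher, beside 5.06% of all genes called lower, and Tagln2, the transgelin of non-muscle cells, was first at 80.3, 81.5 and 85.5 FPKM in controls against 38.8, 40.8 and 51.0 FPKM in F1-HHcy (-0.914, SE 0.146, adjusted p = 0.0153).

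Of the 33 signalling genes, 5 of 21 tested were called higher at Pd3, 9 of 25 at Pd7, and 1 of 25 lower at Pd21, with none in the other direction, beside 9.74% of all genes in either direction at Pd3, 9.06% higher at Pd7 and 5.06% lower at Pd21. Ednra, the receptor for endothelin, led at Pd3 with 9.71, 10.2 and 11.1 FPKM in controls and 21.9, 19.9 and 19.1 FPKM in F1-HHcy (0.913, SE 0.107, adjusted p = 0.0167). Oxtr, the oxytocin receptor, led at Pd7 with 0.0356, 0.0873 and 0.695 FPKM in controls and 2.68, 2.85 and 2.19 FPKM in F1-HHcy (1.52, SE 0.207, adjusted p = 0.00363), but it passed the filter only through the F1-HHcy libraries where it was high. Kcnmb1, the beta subunit of the calcium-activated potassium channel, led at Pd21 with 2.36, 2.28 and 2.29 FPKM in controls and 0.804, 0.752 and 1.33 FPKM in F1-HHcy (-0.766, SE 0.178, adjusted p = 0.0904). These are all limma values with Benjamini-Hochberg adjustment. The groups of Ednra, Oxtr and Kcnmb1 did not overlap on those days, but they were picked by the smallest p of their list, which favours such groups. Of all genes tested, 19.5% did not overlap and were higher at Pd7, and 8.61% did not overlap and were lower at Pd21.

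The regulators were SRF itself and factors that act with or against it. Of 11 tested, 1 was called higher at Pd3 and 1 at Pd7, and 0 were called at Pd21, where 0 also had an adjusted p under 0.05 by limma and 0 an unadjusted p under 0.05. Fhl2, an SRF cofactor, led at Pd3 with 12.8, 13.4 and 14.8 FPKM in controls and 52.7, 42.4 and 23.1 FPKM in F1-HHcy (1.39, SE 0.270, adjusted p = 0.0433). Myocd, which encodes myocardin, measured 0.835, 0.676 and 1.07 FPKM in Pd3 controls and 3.32, 1.70 and 0.494 FPKM in Pd3 F1-HHcy, low in the same library as the actins. Srf itself measured 6.30, 6.37 and 9.62 FPKM against 10.1, 7.24 and 13.4, with its highest Pd3 value in F1-HHcy replicate 3. The regulator called at Pd7 was Myocd, where 9.06% of all genes were called higher, and it did not pass the adjusted p. It measured 1.49, 1.41 and 3.62 FPKM in Pd7 controls and 3.54, 3.49 and 4.56 FPKM in Pd7 F1-HHcy, groups that overlapped. Elk1, which competes with myocardin for SRF, had the smallest p at Pd7 (0.475, SE 0.136, adjusted p = 0.0497 with limma), under the size asked for a call.

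Markers that tell smooth muscle from its neighbours were read beside these results. The 15 mural cell and pericyte markers summed to 78.4 to 89.7 FPKM in Pd3 controls and 92.9 to 98.6 FPKM in Pd3 F1-HHcy, with 6 of 12 called higher and 1 lower, and Pdgfrb first (1.07, SE 0.169). Rgs4 was tested at Pd3 only through the F1-HHcy libraries, where it was high. Without Cox4i2 the Pd3 sums were 40.9 to 53.7 FPKM in controls and 82.7, 78.0 and 68.2 FPKM in F1-HHcy replicates 1, 2 and 3, above every control in all 3. At Pd7 1 of 12 was called higher and 2 lower, Cox4i2 first (-1.93, SE 0.314), and at Pd21 1 of 12 lower, Kcnj8 (-0.589, SE 0.237). Striated muscle markers, of which 29 of 30 were in the files, were called lower in 3 of 8 tested at Pd3 (Mylpf first, at -0.976, SE 0.198), 4 of 9 at Pd7 (Tnni1 first, at -2.05, SE 0.334) and 1 of 6 at Pd21 (Tnnt2, at -0.819, SE 0.325). Myh7 was tested at Pd7 only through the controls, where it was high. Of the 29, 12 stayed below 1 FPKM in every library, among them the striated actins Acta1 (0 to 0.179 FPKM) and Actc1 (0 to 0.594 FPKM) and the myogenic factor Myog (0 to 0.0192 FPKM). Another 11 peaked between 1 and 5 FPKM, and 6 went higher in some library: Mylpf, Neb, Tnni1, Tnni3, Tnnt1 and Tnnt2. Tnni1, a slow skeletal troponin, measured 14.9, 13.1 and 17.3 FPKM in Pd3 controls and 5.51, 15.1 and 3.88 FPKM in Pd3 F1-HHcy. Tnni3, a cardiac troponin, measured 13.0, 13.7 and 17.9 FPKM in Pd3 controls and 58.1, 51.2 and 11.2 FPKM in Pd3 F1-HHcy.

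The genes of the set varied together across libraries to different degrees. Over the 18 libraries, the Pearson correlation of log2(FPKM + 1) with the mean of the other genes was highest for Acta2 (0.986) and lowest for Myl9 (0.698) and Casq2 (0.722). Over the 18 deviations from the 6 group means, which leave out age, batch and diet, it ran from 0.962 for Actg2 to 0.445 for Casq2. The closest pair was Actg2 and Cnn1 in both (0.990 and 0.973). The genes outside the set that ran most like its mean over the libraries were Tpm2 (0.987), Fbxl22 (0.961), Tpm1 (0.954), Cnn2 (0.950), Mxra7 (0.942) and Tnnt2 (0.940), and in the deviations Tpm2 (0.956) and Fbxl22 (0.950) came first again, before Alg8, Abca9, Xkr5 and Tcl1b3 (0.935 to 0.916). Tpm1 and Tpm2 are the tropomyosins of the thin filament. All points share the libraries and their depth, and the 3 libraries of F1-HHcy Pd3 supply much of the spread in the deviations, so these values are a description.

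The proportions within a library also shifted with age, although age and batch cannot be told apart for Pd21. Acta2 stood at 0.135 to 0.243 times the level of Myl9 in Pd3 controls, at 0.598 to 0.879 times in Pd7 controls and at 0.834 to 1.04 times in Pd21 controls. In F1-HHcy ovaries the range was 0.194 to 0.734 at Pd3, 0.902 to 0.968 at Pd7 and 0.881 to 0.944 at Pd21. At Pd7 the F1-HHcy ratios lay above those of the controls, and the other ranges overlapped. Actg2 stood at 0.183 to 0.270 times Acta2 in Pd7 controls and 0.130 to 0.169 times in Pd7 F1-HHcy, and at 0.206 to 0.276 against 0.189 to 0.195 times at Pd21. On both days the ratio was lower in every F1-HHcy library than in every control, while at Pd3 it overlapped, at 0.0872 to 0.159 in controls and 0.136, 0.182 and 0.0557 in F1-HHcy. This ratio was noticed in these data and has no test.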

How the data were processed

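Ovarian RNA was sequenced from poly-A selected, strand-specific libraries. The submitters' processing notes name FastQC 0.11.9, Trimmomatic 0.39, STAR 2.7.9a, featureCounts 2.0.1, DESeq2 1.36.0 and the builds GRCm38 and mm10, without saying which step made the values. The authors deposited 1 FPKM value per gene symbol and library. The unit was read from the values: 1 length per gene and 1 factor per library gave whole fragments for 99.989% of 27294 genes measured in 3 or more libraries.

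Comparisons used limma 3.58.1 (R 4.3.3) with a variance trend on log2(FPKM + 1), for genes at 1 FPKM or more in 3 libraries or more, and Benjamini-Hochberg adjustment over all genes tested. The call criterion is that of the study's volcano plots. The test was tried on simulated data. The 10 genes and all gene lists were chosen with earlier results of these data known. All 10 genes are named, and of each other list the gene with the smallest p in each diet comparison where the list had a call, plus genes needed to check markers. Hsd3b1, Gli1, Myocd, Srf, Tnni1, Tnni3 and the other striated genes named for their levels were added after their values were seen. Same-numbered libraries deviated together only between Pd3 and Pd7 F1-Control (correlations 0.134, 0.262 and 0.292), where the replicate number as a block changed no call. Alternatives were a pseudocount of 0.1, no filter, median-ratio scaling, limma-voom on recovered fragments, the replicate block, 1 model of all 18 libraries, another threshold and each library left out. Sequences came from RefSeq and GENCODE tables. Tables and figures were made with matplotlib 3.10.9, pandas 2.3.3 and numpy 2.4.6 under Python 3.11.15.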

Additional observations from a re-analysis of the deposited data

Results flagged for a closer look

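For 3 of the 10 contractile genes the diet effects of 2 ages differed at an adjusted p under 0.05, by limma over all 18 libraries. Of all genes tested, 4.59% passed for Pd21 minus Pd3 and 3.89% for Pd21 minus Pd7. From Pd3 to Pd21, the log2 fold change of Casq2 went from 1.64 to 0.176, and the diet effect at Pd21 minus that at Pd3 was -1.47 (SE 0.287, adjusted p = 0.00559). Des went from 0.478 to -1.23, a difference of -1.71 (SE 0.397, adjusted p = 0.0185). Smtn went from 0.930 to -0.549, a difference of -1.48 (SE 0.385, adjusted p = 0.0358). From Pd7 to Pd21, Casq2 went from 1.23 to 0.176, a difference of -1.06 (SE 0.287, adjusted p = 0.049995, just under the threshold). Casq2 was higher in 3 of 3 F1-HHcy libraries than in every control at Pd3 and at Pd7. At Pd7 this held for 19.5% of all genes tested, and no such share is given for Pd3. It entered the Pd3 test only through its F1-HHcy libraries, since it was below 1 FPKM in every Pd3 control. The Pd21 libraries were another batch, so age and batch cannot be told apart in all 4, and the Des and Smtn results and the later one of Casq2 were each lost without single libraries.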

How the results depend on the processing

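With the adjusted p as threshold, 1 of the 10 genes passed at each day in the diet comparison and 0 from Pd3 to Pd7 in F1-HHcy. With the unadjusted p and size as threshold, the differences of diet effects gave 1 gene for Pd7 minus Pd3, 8 for Pd21 minus Pd3 and 3 for Pd21 minus Pd7. For Pd7 minus Pd3, 5.28% of all genes were called lower in this way. No share of all genes is given here for the differences with Pd21, so those counts have nothing to be read against. All 18 libraries in 1 model left 1 gene called at Pd21, where 5.28% of all genes were called. No filter left 3 called from Pd3 to Pd7 in F1-HHcy, where 5.21% of all genes were. The call for Pd21 minus Pd7 (Casq2) fell to 0 with a pseudocount of 0.1, no filter, median-ratio scaling, limma-voom on recovered fragments and the replicate block. The filter of 1 FPKM in 2 libraries without F1-HHcy Pd3 replicate 3, chosen after seeing the data, gave 9. With 1 library left out, counts ranged from 1 to 7 at Pd3, 2 to 5 at Pd7, 1 to 6 at Pd21, 6 to 9 from Pd3 to Pd7 in F1-Control and 3 to 9 in F1-HHcy, and from 0 to 2, 1 to 9 and 0 to 2 for the differences Pd7 minus Pd3, Pd21 minus Pd3 and Pd21 minus Pd7. In the same order, the share of all genes called ranged from 6.98% to 14.9%, 10.6% to 21.3%, 2.80% to 7.22%, 12.9% to 19.1% and 7.89% to 16.3%. For the differences the share ranged from 0.0686% to 1.82%, 1.47% to 8.65% and 1.30% to 8.03%. Signs turned where values were near 0. With 1 library left out, log2 fold changes ranged from -0.0438 to 1.14 for Tagln at Pd3, negative without F1-HHcy replicate 1 (also under the looser filter), and from -0.308 to 0.0355 for Myl9 at Pd3, positive without F1-HHcy replicate 3 (also under the looser filter). At Pd7 they ranged from -0.180 to 0.182 for Myl9, negative without control replicate 1 and F1-HHcy replicate 2 or 3 and also with median-ratio scaling (-0.00988), and from -0.356 to 0.169 for Actg2, positive without control replicate 3 or F1-HHcy replicate 1. The cause was not tested. The replicate numbers are not known to pair libraries across diets, and with the number as a block the counts were 2 at Pd3, 3 at Pd7, 3 at Pd21, 9 from Pd3 to Pd7 in F1-Control and 5 in F1-HHcy, and 0, 2 and 0 for the differences of diet effects. With this block 9.45%, 16.8%, 5.41%, 15.2% and 11.2% of all genes were called in the same order, and 0.192%, 4.12% and 3.69% for the differences. Depth limits the Pd3 control values of Casq2, which rest on 9, 2 and 16 fragments.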

Other observations

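Lists of other ovarian cell types were read in the same diet comparisons, with the gene of the smallest p and its log2 fold change from limma given where a list had a call. At Pd3, oocyte genes were mixed, with 6 of 12 called higher and 3 lower (Gdf9, an oocyte growth factor, 1.85), and granulosa genes were called higher in 5 of 9 (Inha, the inhibin alpha subunit, 1.78). Also at Pd3, theca was led by Ptch1 (1.25), endothelium by Eng (0.998), fibroblasts by Pdgfra (1.83) and erythroid genes by Alas2 (-2.96). Surface epithelium genes were called lower in 3 of 10 (Krt8, -0.694), and oviduct epithelium genes in 0 of 10, with 0 also passing the adjusted p of limma and 1 at an unadjusted p under 0.05.

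At Pd7, oocyte genes were called lower in 8 of 12 and higher in 2 (Sohlh1, an early oocyte regulator, -2.66), and granulosa genes higher in 5 of 10 (Nr5a2, 1.52). Surface epithelium genes were called lower in 6 of 10, while oviduct epithelium genes were called lower in 3 of 10 and higher in 1, both led by Krt7 (-1.54). Erythroid genes were called lower in 5 of 5 (Hbb-bs, -2.20), fibroblast genes lower in 3 of 10 (Postn, -1.56), endothelium genes higher in 2 of 12 (Tie1, 0.617), and immediate early genes 1 higher and 1 lower of 11 (Nr4a1, 1.22). At Pd21 the lists with calls were oviduct epithelium (Foxj1, a regulator of motile cilia, -5.14, tested only through the controls since it was below 1 FPKM in every F1-HHcy library), surface epithelium (Krt18, -1.43) and fibroblasts (Dpt, -1.01). None of the oocyte, granulosa, theca, endothelium, erythroid and immediate early genes tested at Pd21 was called, nor did any pass the adjusted p of limma, and 2 of them, both immediate early genes, had an unadjusted p under 0.05.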
